A study of Mus musculus with 12 samples.

Results

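The genes described here encode the SR proteins, the hnRNP proteins and the SF3 and U2AF subunits, which together recognise splice sites and decide which exons enter a messenger RNA. They were chosen by a rule on names, which was set with earlier results of these data known. The rule worked on symbols in GENCODE M21, the mouse gene annotation used here. It took every protein-coding gene whose symbol begins with Srsf and a number, Hnrnp, Sf3a or Sf3b and a number, or U2af. This gave 43 of the 48526 gene IDs in the count table, namely 11 SR, 20 hnRNP, 9 SF3 and 3 U2AF genes. Their RNA was followed in microglia, the resident macrophages of the central nervous system, from the spinal cord of Biozzi ABH mice. The 4 groups were control mice and mice with chronic-relapsing experimental autoimmune encephalomyelitis (crEAE) taken in the acute phase, in remission or in the chronic phase, with 3 mice each. EAE is an induced autoimmune attack on the central nervous system that serves as a model of multiple sclerosis. All groups shared the strain, the tissue and the sort, which kept cells with CD11b, an intermediate level of CD45 and no Ly-6C. The immunisation, the ages and the days of sampling are not given in the sources used here.

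SR proteins bind enhancer sequences in exons through an RNA recognition motif and recruit the splicing machinery through a tail rich in arginine and serine, whose phosphorylation controls their activity. The hnRNP proteins coat nascent transcripts and often act against SR proteins by hiding splice sites, although several activate exons from neighbouring introns. U2AF reads the polypyrimidine tract and the acceptor splice site, and SF3A and SF3B are the protein subcomplexes with which the U2 particle grips the branch site. Many SR and hnRNP genes limit their own output by splicing in an exon that sends the transcript to nonsense-mediated decay. In macrophages, changes in such proteins accompany activation and alter the processing of inflammatory transcripts.

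Total counts ranged from 3992885 to 5712376 per library, of which the 6 features with the most counts took 48.3 to 64.1%. The rest, without mitochondrially encoded genes, came to 1266782 to 2496096 counts, with the fewest in acute libraries (1266782 to 1459329). Of the 43 genes, 41 passed the filter on low counts and were tested among 12545 genes. The exceptions were Srsf12, with 0 to 3 counts per library, and U2af1l4, with 0 to 2. Levels are given as CPM, the count scaled to the size of its library, after correction by trimmed means of M values (TMM). Each log2 fold change is followed by its standard error (SE).

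Markers of the sorted cell type were lower in acute libraries, to very different degrees. Their log2 fold changes ran from -8.04 ± 0.38 for Fcrls to -0.99 ± 0.15 for Mertk. Fcrls was nearly absent there, at 0, 0.80 and 0.30 CPM against 93.5, 103 and 114 CPM in control. All 12 microglial markers fell there, and their summed level went from 9964 to 11115 CPM in control to 2539 to 3891 CPM in acute libraries. P2ry12, a purinergic receptor of resting microglia, stood at 679 ± 93.0 CPM in control and 66.5 ± 18.8 CPM in acute mice (SD, n = 3). All 15 monocyte and recruited macrophage markers rose, from a sum of 11.4 to 50.5 CPM to 1777 to 2666 CPM, and 6 of them, among them Ly6c2, Chil3, Ms4a8a, F10 and Saa3, were at 0 in all control libraries. Of 10 neutrophil markers tested, 9 rose and 1, Csf3r, fell, and 8 of the 12 on the list were at 0 in control. The summed neutrophil list lay at 348 to 457 CPM in control and 279 to 583 CPM in acute libraries, nearly all of the control level being Csf3r. All 5 T and NK cell markers tested rose, with sums of 0.142 to 0.863 CPM in control and 75.9 to 112 CPM in acute libraries. Oligodendrocyte markers (6 of 8 rose, sums of 87.3 to 111 and 455 to 606 CPM) and astrocyte markers (3 of 5 rose, sums of 58.2 to 74.3 and 183 to 226 CPM) were also higher. In remission and chronic libraries the monocyte sum stood at 20.98 to 44.5 and 37.3 to 83.4 CPM, and the microglial sum at 8426 to 8591 and 7808 to 8215 CPM. In 1 remission library the oligodendrocyte sum reached 711 CPM. The part of these cells in the values below was not tested, and in RNA from many cells a smaller share of cells expressing a gene and less RNA per cell cannot be told apart.

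Promoters are shown for 6 members that lie on both sides of the acute comparison, among them the paired relatives Hnrnph1 and Hnrnph2, and Hnrnpa1 and Hnrnpa2b1. Each run is the 150 bases before the transcription start given by RefSeq on GRCm38.p6, written 5′ to 3′ on the gene's strand, and capitals mark matches to any of 6 motifs on either strand. The windows are chr17:80207306-80207455 (minus strand) for Srsf7, chr11:116853095-116853244 (minus) for Srsf2, chr11:50376840-50376989 (plus) for Hnrnph1, chrX:134601029-134601178 (plus) for Hnrnph2, chr6:51469895-51470044 (minus) for Hnrnpa2b1 and chr15:103240247-103240396 (plus) for Hnrnpa1.
Srsf7: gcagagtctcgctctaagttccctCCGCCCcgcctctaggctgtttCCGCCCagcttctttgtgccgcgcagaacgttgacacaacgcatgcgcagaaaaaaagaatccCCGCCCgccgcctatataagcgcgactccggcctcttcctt
Srsf2: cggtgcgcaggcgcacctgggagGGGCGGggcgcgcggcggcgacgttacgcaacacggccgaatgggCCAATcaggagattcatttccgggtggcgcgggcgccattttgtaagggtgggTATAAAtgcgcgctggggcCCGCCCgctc
Hnrnph1: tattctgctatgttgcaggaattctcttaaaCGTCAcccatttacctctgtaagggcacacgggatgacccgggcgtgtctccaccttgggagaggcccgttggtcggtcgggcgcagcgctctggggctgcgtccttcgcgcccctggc
Hnrnph2: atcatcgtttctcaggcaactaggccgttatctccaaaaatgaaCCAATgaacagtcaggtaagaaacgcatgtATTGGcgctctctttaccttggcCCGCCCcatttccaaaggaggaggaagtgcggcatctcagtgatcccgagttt
Hnrnpa2b1: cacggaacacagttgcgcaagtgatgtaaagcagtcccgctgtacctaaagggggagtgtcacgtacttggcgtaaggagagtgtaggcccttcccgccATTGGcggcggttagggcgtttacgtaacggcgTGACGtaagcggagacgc
Hnrnpa1: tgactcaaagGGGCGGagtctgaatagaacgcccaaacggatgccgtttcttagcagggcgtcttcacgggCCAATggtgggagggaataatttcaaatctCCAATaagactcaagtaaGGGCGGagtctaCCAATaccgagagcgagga
The motifs were the GC box GGGCGG, the CCAAT box, the ETS core CCGGAAG, the E-box CACGTG, the TGACG core of the cyclic AMP response element and the TATA box TATAAA. In these windows Srsf7 carried 3 GC boxes, and Srsf2 held 2 GC boxes, a CCAAT box and a TATA box. Hnrnph1 had only a TGACG core, while Hnrnph2 had 2 CCAAT boxes and a GC box. Hnrnpa2b1 had a CCAAT box and a TGACG core, and Hnrnpa1 had 3 CCAAT boxes and 2 GC boxes.

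Over the 250 bases before the start, the 38 members with an entry were rich in CpG dinucleotides, with a median of 22.5 per promoter, against 16 in 8636 protein-coding genes tested here and 6 in all 27025 genes listed. A GC box was found in 73.7% of the 38 promoters, 60.2% of those of tested protein-coding genes and 32.9% of all. An ETS core was found in 31.6%, 14.9% and 7.05% in the same order, a TGACG core in 42.1%, 28.0% and 17.9%, and a CCAAT box in 47.4%, 36.4% and 34.5%. The E-box (5.26%, 8.63% and 6.05%) and the TATA box (10.5%, 5.95% and 13.0%) were rarer. Among the SR genes, 10 of 11 promoters held a GC box and 3 of 11 a CCAAT box. Of the members called in acute against control, a CCAAT box lay in 6 of 7 promoters of those higher and 5 of 9 of those lower, and a TGACG core in 2 of 7 and 6 of 9. These are matches of letters in a window and describe the promoters only.

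In the acute phase, 9 of the 41 tested members were higher and 10 lower than in control mice at an adjusted p under 0.05. Of the 10 tested SR genes 4 passed, all lower, the 3 SF3 genes that passed were all higher, and the hnRNP genes split, with 6 higher and 5 lower. A difference between the families was not tested. Over all genes tested, 23.7% were called higher and 20.0% lower, so that the share of members called, 46.3%, lay near the background. The median log2 fold change was -0.06 over the members and 0.02 over all genes, with -0.35 for SR, -0.05 for hnRNP and 0.36 for SF3 genes. The summed level of the SR genes was 600 to 634 CPM in control and 451 to 494 CPM in acute libraries, without overlap. The hnRNP sum was 1490 to 1581 CPM in control and 1440 to 1453 CPM in acute libraries, also without overlap. Its mean went from 1547 to 1445 CPM, while Hnrnpa2b1 alone went from 250 to 148 CPM and Hnrnph1 from 191 to 91.5 CPM. The fall of the sum thus does not describe the hnRNP genes in general, of which 6 were called higher and 5 lower. How often the sums of other gene sets stand apart was not measured. The SF3 sums of 426 to 454 and 437 to 474 CPM overlapped.

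The split depends on the scaling, and the 6 dominant features took a larger share of acute libraries (62.4 to 64.1%) than of control libraries (48.3 to 56.2%). With library totals in place of TMM, the median of all genes moved by -0.56, members called went to 1 higher and 21 lower, and the share of higher calls over all genes went from 54.3% to 22.8%. With totals outside the dominant features and mitochondrial genes the median moved by -0.06 and 6 members were higher and 12 lower. There 50.1% of calls over all genes were higher, against 54.3% with TMM. All changes given here are relative to the TMM scaling, under which the median gene moved by 0.02. Leaving out single libraries left 9 to 11 members lower. The number higher went to 5 when any single control library or acute replicate 2 was left out, and also to 5 with no filter on low counts.

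**Figure D1:**
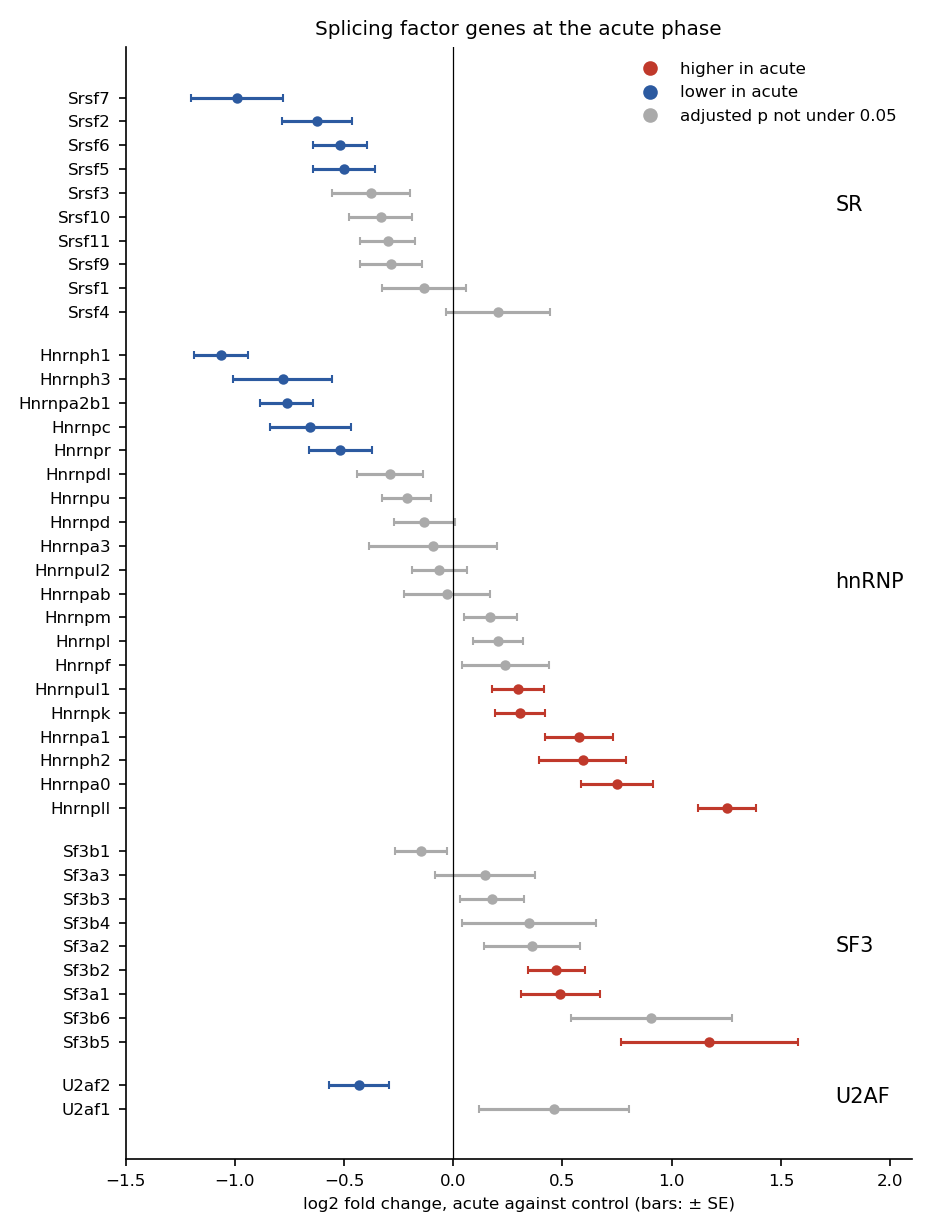
Log2 fold change of each of the 41 tested members in acute against control mice (x axis), grouped by family. Bars show the SE from the model of all 12 libraries, with 3 mice per group. Red and blue points passed an adjusted p under 0.05. SR genes lie mostly left of 0, SF3 genes mostly right, and hnRNP genes spread from -1.06 to 1.25.

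Srsf7, whose protein binds exonic enhancers and helps hand spliced RNA to the export receptor, had the largest change among the SR genes. It stood at 30.7, 22.6 and 31.5 CPM in the control libraries and 14.3, 13.6 and 14.8 CPM in the acute libraries. All 3 acute libraries lay below the lowest control, with a log2 fold change of -0.99 ± 0.21 (SE, adjusted p 0.000710). Remission libraries held 23.4, 24.5 and 27.1 CPM and chronic libraries 12.7, 22.9 and 22.4 CPM, and 1 chronic library lay below the acute ones. Srsf2, a protein of nuclear speckles that defines exons and also acts in the release of paused polymerase, measured 73.3, 59.9 and 65.4 CPM in control and 42.5, 47.2 and 39.1 CPM in acute libraries. The groups did not overlap, and the log2 fold change was -0.62 ± 0.16 (SE, adjusted p 0.00358). Of its exonic bases, 25.3% overlap Mettl23 or Mfsd11 on the other strand, and the library kit does not keep the strand, so some reads could be theirs.

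Srsf6 and Srsf5, closely related SR proteins that strengthen weak exons, fell by similar amounts. Srsf6 held 86.8, 77.1 and 77.9 CPM in control and 50.1, 64.5 and 54.2 CPM in acute libraries, a log2 fold change of -0.52 ± 0.13 (SE, adjusted p 0.00206). Srsf5, the SR gene with the highest level per kilobase, held 121, 137 and 142 CPM and 88.2, 92.7 and 102 CPM, a log2 fold change of -0.50 ± 0.14 (SE, adjusted p 0.00732). For both, every acute library lay below every control library. The calls of Srsf7, Srsf2, Srsf6 and Srsf5 held in all 21 alternative settings. The other 6 tested SR genes did not pass. At an unadjusted p under 0.05, 7 of 10 SR genes were lower and 0 higher, and limma-voom called 6 lower. Here and below, counts at an unadjusted p or by DESeq2 or limma-voom have no share over all genes beside them. Srsf11, an SR protein found with U2AF, measured 97.2, 101 and 111 CPM and 86.9, 85.8 and 78.3 CPM (-0.30 ± 0.13 (SE, adjusted p 0.0616)). Srsf10, which represses splicing when it loses its phosphates, measured 45.9, 41.5 and 51.8 CPM and 37.4, 35.7 and 37.3 CPM (-0.33 ± 0.15 (SE, adjusted p 0.0710)). Srsf3, Srsf9 and Srsf1 had log2 fold changes of -0.38 ± 0.18, -0.28 ± 0.14 and -0.14 ± 0.19, and Srsf4, with 43.0% of its exonic bases shared with the transcript Gm12992, had 0.21 ± 0.24.

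Among the hnRNP genes, Hnrnpa2b1 and Hnrnph1, which had the highest levels per kilobase in control mice, both fell. Hnrnph1, whose protein binds runs of guanine beside exons, stood at 192, 172 and 209 CPM in control and 87.9, 86.9 and 99.6 CPM in acute libraries. No acute library reached the lowest control, and the log2 fold change was -1.06 ± 0.12 (SE, adjusted p 6.70e-07). Hnrnpa2b1, which carries and sorts RNAs as well as repressing exons, stood at 240.0, 247 and 264 CPM and 126, 164 and 152 CPM. Its groups were also apart, with a log2 fold change of -0.76 ± 0.12 (SE, adjusted p 3.57e-05). Hnrnpr, a relative of the mRNA-binding protein Syncrip, measured 65.0, 62.4 and 56.1 CPM in control and 41.5, 48.2 and 38.5 CPM in acute libraries (-0.52 ± 0.14 (SE, adjusted p 0.00628)). Hnrnpc, which covers uridine tracts, went from 31.8 ± 1.84 to 20.0 ± 6.06 CPM (SD, n = 3), a change of -0.65 ± 0.18 (SE, adjusted p 0.00687). Hnrnph3, a short relative of Hnrnph1, went from 16.1 ± 1.21 to 9.40 ± 2.73 CPM (-0.78 ± 0.23 (SE, adjusted p 0.00848)), a call that ended without acute replicate 2. The calls of Hnrnph1, Hnrnpa2b1, Hnrnpr and Hnrnpc held in all 21 alternatives.

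Hnrnpll had the largest rise of all members with a call. Its protein is best known from activated lymphocytes, where it drives the skipping of variable exons of CD45. It stood at 34.8, 31.2 and 33.9 CPM in the control libraries and 91.3, 70.1 and 76.8 CPM in the acute libraries, every acute library above every other library of the study. The log2 fold change was 1.25 ± 0.13 (SE, adjusted p 1.96e-07), and the call held in all 21 alternatives, with values from 0.69 to 1.33. Hnrnpll shares no stretch of read length with another annotated transcript, and lies at chromosome 17, 80029487 to 80062334, on the same chromosome as Srsf7 (chromosome 17, 80200080 to 80207307), which moved the opposite way. Markers of T and NK cells and of monocytes rose in the same libraries, as given above, and their part in the rise of Hnrnpll was not tested.

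Hnrnpa0, an AU-rich element binder that acts downstream of the stress kinase Mapkapk2 in stimulated macrophages, measured 17.6, 25.4 and 22.0 CPM in control and 38.1, 36.8 and 34.1 CPM in acute libraries. The groups did not overlap and the log2 fold change was 0.75 ± 0.16 (SE, adjusted p 0.000853), lost only when library totals were used. Hnrnpa1, a splicing repressor that competes with Srsf1 for exons, measured 74.3, 51.0 and 61.3 CPM and 92.6, 73.3 and 113 CPM. Here the highest control library exceeded the lowest acute library, and the log2 fold change of 0.58 ± 0.16 (SE, adjusted p 0.00557) did not pass without control replicate 2. Of its sequence, 27.0% in windows of read length recurs in 14 other annotated genes, mostly named as predicted genes, so its counts are uncertain. Hnrnph2, the X-linked relative of Hnrnph1, measured 20.3, 17.0 and 17.5 CPM and 27.5, 33.3 and 21.9 CPM, with all acute libraries above the controls (0.59 ± 0.20 (SE, adjusted p 0.0205)). Its call was lost when control replicate 2 or 3 or acute replicate 2 was left out, and with the number in the sample titles (1 or 2) as a covariate. Hnrnpk, a binder of cytosine-rich RNA, and Hnrnpul1, a relative of the nuclear scaffold protein Hnrnpu, passed with small changes of 0.31 ± 0.12 (SE, adjusted p 0.0368) and 0.30 ± 0.12 (SE, adjusted p 0.0474), and lost their calls in 11 and 14 of the 21 alternatives.

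The other 9 hnRNP genes did not pass, with log2 fold changes from -0.29 ± 0.15 for Hnrnpdl to 0.24 ± 0.20 for Hnrnpf. Hnrnpu, which organises chromatin in the nucleus, measured 222, 206 and 192 CPM in control and 169, 178 and 188 CPM in acute libraries, without overlap, and missed the threshold (-0.21 ± 0.11 (SE, adjusted p 0.138)). Hnrnpl, the close relative of Hnrnpll, measured 119.6, 115 and 125 CPM and 141, 128 and 146 CPM (0.21 ± 0.12 (SE, adjusted p 0.155)). Hnrnpf, a relative of Hnrnph1, measured 68.8, 64.8 and 72.1 CPM and 76.3, 94.8 and 71.4 CPM, and these overlap. These 3 were chosen after their values were seen.

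The SF3 genes that rose were Sf3b2 and Sf3b5 of SF3B and Sf3a1 of SF3A. Sf3b2, which contacts RNA near the branch site, stood at 38.3, 42.8 and 41.4 CPM in control and 57.1, 51.2 and 61.7 CPM in acute libraries. All acute libraries lay above the controls, with a log2 fold change of 0.47 ± 0.13 (SE, adjusted p 0.00544). Sf3a1, the largest SF3A subunit, measured 20.6, 23.0 and 16.8 CPM and 27.5, 27.2 and 30.5 CPM, also without overlap (0.49 ± 0.18 (SE, adjusted p 0.0340)). Sf3b5, a small protein at the core of SF3B, rests on 8 to 22 counts per library and measured 1.99, 1.40 and 3.67 CPM and 4.15, 5.06 and 6.52 CPM (1.17 ± 0.41 (SE, adjusted p 0.0241)). The Sf3a1 call was lost in 8 and the Sf3b5 call in 5 of 21 alternatives, among them leaving out control replicate 1, and Sf3b2 lost its direction with library totals alone. Sf3b6, which lies against the branch adenosine, measured 3.41, 5.78 and 4.32 CPM and 10.6, 7.19 and 7.41 CPM and stood just outside the threshold (0.91 ± 0.37 (SE, adjusted p 0.0508)). Sf3b1, the large ring-shaped subunit that is mutated in some blood cancers and the SF3 gene with the highest level per kilobase, measured 273, 301 and 286 CPM and 271, 262 and 244 CPM (-0.15 ± 0.12 (SE, adjusted p 0.336)). Sf3a2, Sf3a3, Sf3b3 and Sf3b4 had log2 fold changes of 0.36 ± 0.22, 0.15 ± 0.23, 0.18 ± 0.15 and 0.35 ± 0.31, none of which passed.

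U2af2, the large U2AF subunit that binds the polypyrimidine tract, was lower in acute mice. It measured 51.9, 58.9 and 59.8 CPM in control and 42.0, 44.5 and 39.7 CPM in acute libraries, without overlap, and its log2 fold change of -0.43 ± 0.14 (SE, adjusted p 0.0152) held in all 21 alternatives. Its partner U2af1, which reads the acceptor dinucleotide, measured 4.84, 6.31 and 3.45 CPM and 8.04, 8.53 and 3.56 CPM with 12 to 36 counts per library, and did not pass (0.46 ± 0.34 (SE, adjusted p 0.293)).

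**Figure D2:**
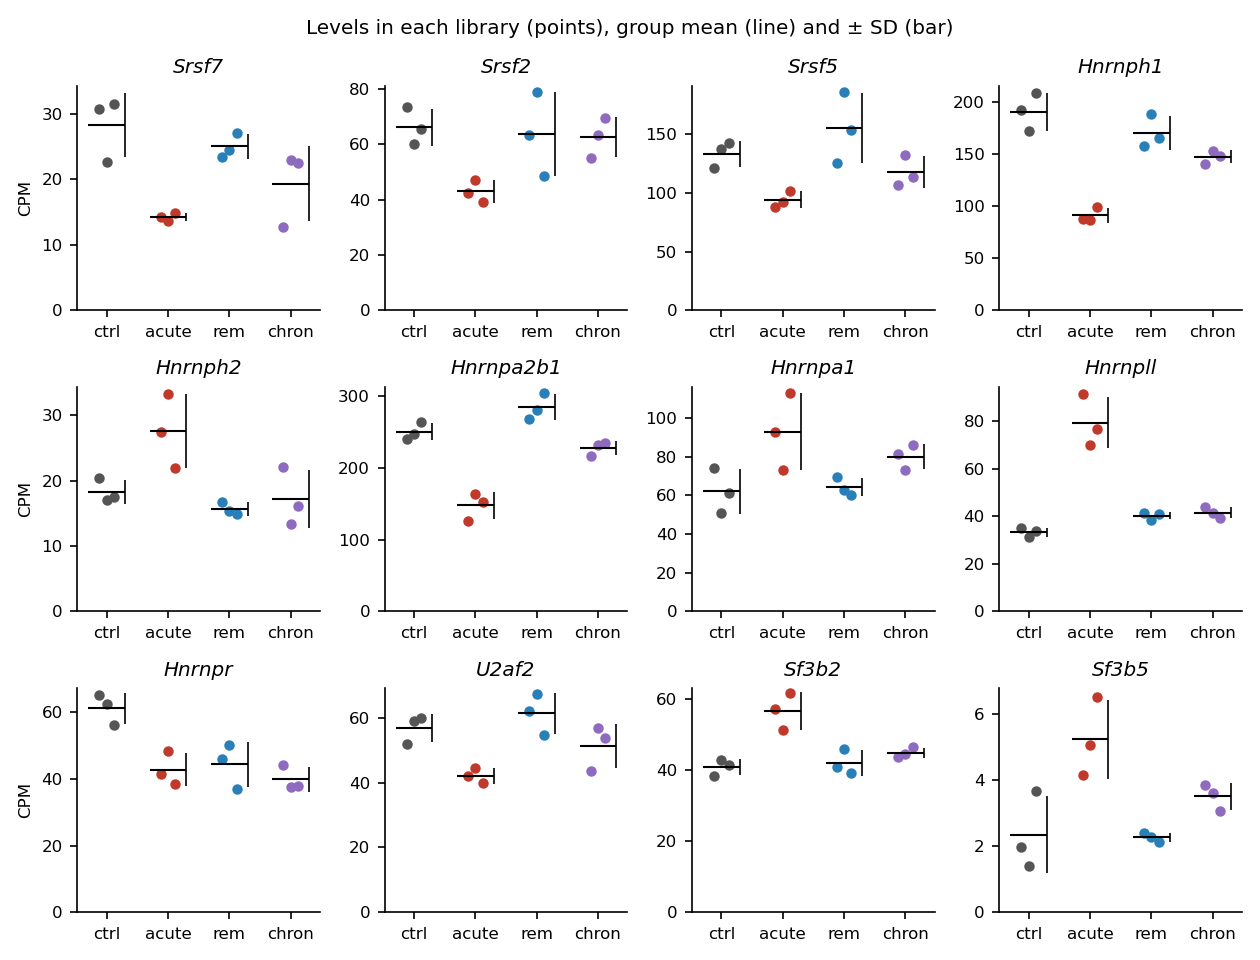
CPM of 12 members (y axis, from 0) in each library of the control, acute, remission and chronic groups, with the group mean as a line and the SD of 3 mice as a bar. Acute libraries are the lowest for Hnrnph1 and Hnrnpa2b1 and the highest for Hnrnpll, while Hnrnpr is lower than control in all 3 phases.

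Ratios between related genes within a library do not depend on how libraries are scaled, and 18 such ratios of counts per kilobase of exon were compared between acute and control mice. They rest on the same libraries as the calls above, so a ratio with a member called there adds no independent evidence for it. How often ratios of other gene pairs stand apart was not measured. The ratio of Hnrnph2 to Hnrnph1 was 0.142, 0.132 and 0.112 in control and 0.418, 0.513 and 0.294 in acute libraries, 3.11-fold higher on the geometric mean. In remission it was 0.142, 0.108 and 0.120 and in chronic libraries 0.209, 0.116 and 0.145. The relation of Hnrnpa1 to Hnrnpa2b1 turned over: the ratio was 0.646, 0.431 and 0.485 in control and 1.53, 0.932 and 1.55 in acute libraries, 2.54-fold higher. In 2 of 3 acute libraries Hnrnpa1 thus exceeded Hnrnpa2b1 per kilobase, which it did in no control, remission or chronic library. Where the ratio crosses 1 depends on the exon lengths used, and 27.0% of Hnrnpa1 in windows of read length is shared with other genes. The chronic ratios of 0.786, 0.657 and 0.766 also lay above all control ratios, 1.43-fold higher, while those of remission (0.541, 0.468 and 0.415) overlapped with control. Hnrnpf to Hnrnph1 was 2.44-fold higher, with 55.9% of Hnrnpf in windows of read length shared with other genes, and Hnrnpll to Hnrnpl was 2.06-fold higher, at 0.149, 0.138 and 0.138 and 0.330, 0.279 and 0.268.

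Hnrnpul1 to Hnrnpu was 0.496, 0.546 and 0.554 in control, 0.747, 0.785 and 0.737 in acute and 0.834, 0.722 and 0.728 in chronic libraries, 1.42-fold higher in acute and 1.43-fold higher in chronic mice. Among SR genes, Srsf7 to Srsf3 was 0.928, 0.827 and 1.41 in control and 0.728, 0.607 and 0.674 in acute libraries, which is 0.650 times the control value. Srsf6 to Srsf4 stood at 0.624 times the control value, whereas Srsf9 to Srsf1 overlapped between the groups (2.28 to 3.65 and 2.04 to 3.45), as did Srsf6 to Srsf5 and Hnrnph3 to Hnrnph1. For each of the ratios given with a fold above or as a multiple of control, the libraries of the groups compared did not overlap. The exact 2-sided permutation test over 20 splits of 3 acute against 3 control libraries then gave its smallest possible p of 0.1, or 0.2 after adjustment over the 18 ratios, so that this design cannot pass 0.05 by that test. The chronic ratios were not tested.

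**Figure D3:**
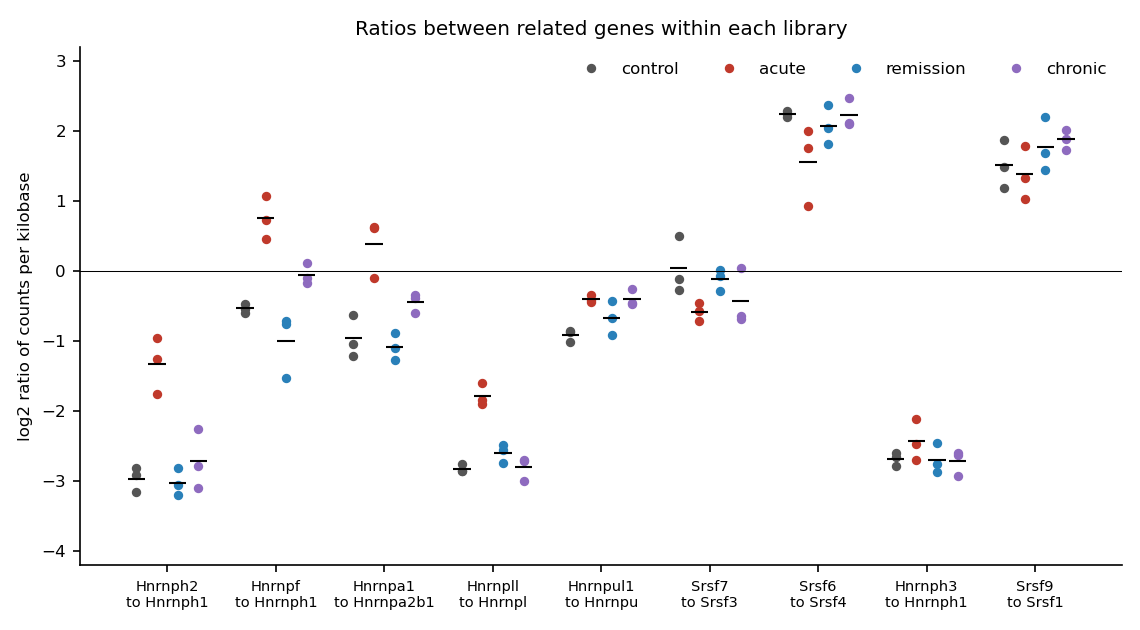
Log2 ratio of counts per kilobase between related genes (y axis) for 9 of the 18 pairs, with a point for each library and a line at the group mean. The acute points of the 5 hnRNP ratios on the left lie above the control points, and those of Srsf7 to Srsf3 and Srsf6 to Srsf4 lie below.

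Per kilobase of merged exons, the order of the members changed with the phase. In control mice Hnrnpa2b1 (38.0 ± 1.85 CPM per kilobase), Srsf5 (33.5 ± 2.75) and Hnrnph1 (32.7 ± 3.14) led, followed by Sf3b1 (25.2 ± 1.25) and Srsf9 (24.4 ± 2.67; SD, n = 3). Srsf5 and Hnrnph1 differed by less than their SDs, as did Sf3b1 and Srsf9. In acute mice Hnrnpa1 (29.5 ± 6.29) and Hnrnpf (26.5 ± 4.06) came first, within each other's SD, and Hnrnph1 was the ninth at 15.7 ± 1.21. The places of Hnrnpa1 and Hnrnpf are uncertain, as 27.0% and 55.9% of their windows of read length are shared with other genes. In remission and chronic mice Hnrnpa2b1 (43.2 ± 2.70 and 34.5 ± 1.52) and Srsf5 (38.9 ± 7.56 and 29.5 ± 3.36) again came first.

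In remission and the chronic phase, few members differed from control. In remission edgeR called 0 members higher and 1 lower, where 6.06% and 3.25% of all genes were called in these directions. At an unadjusted p under 0.05, 1 was higher and 3 were lower, and DESeq2 and limma-voom called 0 higher. In the chronic phase 1 was higher and 3 were lower, against 9.57% and 5.17% of all genes. Hnrnpr was the gene lower in remission, at 46.0, 50.1 and 36.9 CPM, with a log2 fold change of -0.46 ± 0.14 (SE, adjusted p 0.0447). It was also lower in chronic mice, at 44.3, 37.5 and 37.7 CPM (-0.62 ± 0.14 (SE, adjusted p 0.00461)). The chronic call held in all 21 alternatives, while the remission call ended in 6 of the 12 fits that left out a library: control replicates 1, 2 and 3, remission replicates 1 and 3 and chronic replicate 2. These comparisons and that of acute mice share the control libraries.

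Srsf10 was the SR gene called in chronic mice, at 38.4, 29.7 and 31.6 CPM against 45.9, 41.5 and 51.8 CPM in control, a log2 fold change of -0.48 ± 0.14 (SE, adjusted p 0.0281). In remission it held 36.9, 36.7 and 30.0 CPM (-0.42 ± 0.14 (SE, adjusted p 0.0772)). Hnrnph1 was lower in chronic mice, at 141, 153 and 148 CPM (-0.37 ± 0.12 (SE, adjusted p 0.0413)), and Hnrnpul1 was higher, at 113, 103 and 103 CPM against 82.1, 83.9 and 79.6 CPM in control (0.38 ± 0.12 (SE, adjusted p 0.0322)). The Srsf10 call ended without control replicate 1, control replicate 3, chronic replicate 2 or chronic replicate 3. The Hnrnph1 call was lost in 8 and that of Hnrnpul1 in 9 of 21 alternatives, and without 1 library the chronic counts ran from 0 to 1 higher and 1 to 3 lower. The summed SR level was 567 to 684 CPM in remission and 533 to 590 CPM in chronic libraries, the latter below every control library.

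**Figure D4:**
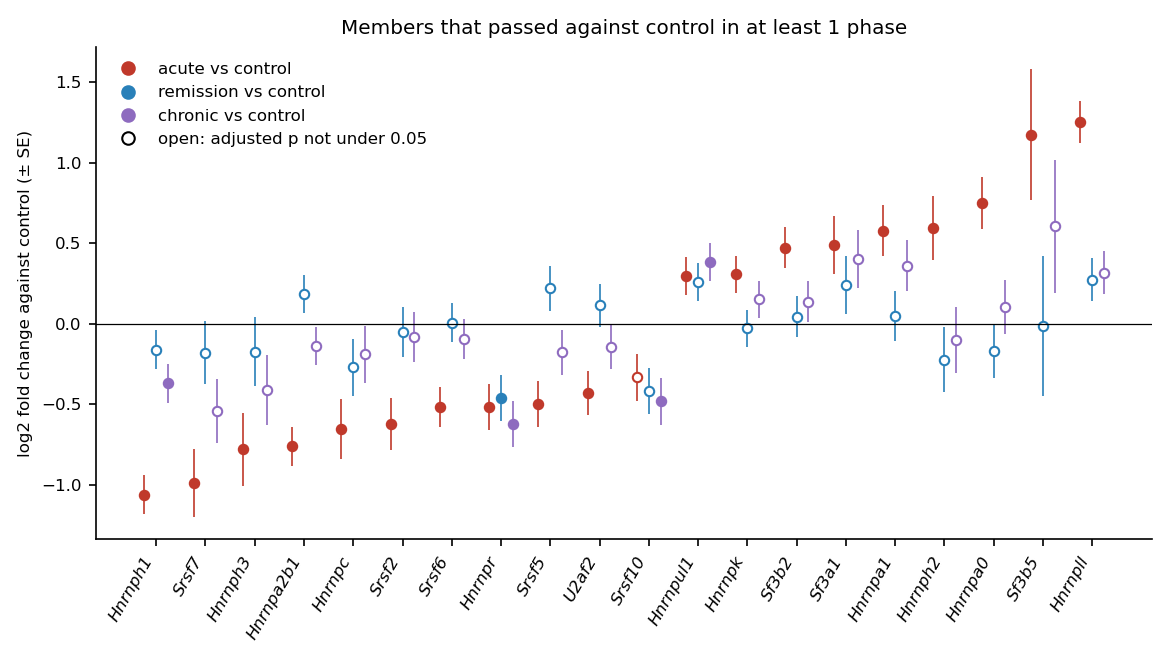
Log2 fold change against control (y axis, bars for the SE) in the acute, remission and chronic phases, for the 20 members that passed in at least 1 of them. Filled points passed an adjusted p under 0.05, and the 3 comparisons share the control libraries. Hnrnpr has filled points in all 3 phases, and most other members have them in the acute phase only.

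Set directly against acute mice, remission mice had 8 members higher and 9 lower, where 17.6% and 19.4% of all genes were called. Among the SR genes Srsf5, Srsf7, Srsf2 and Srsf6 were higher in remission, by 0.72 ± 0.14, 0.81 ± 0.21, 0.57 ± 0.16 and 0.53 ± 0.13 on the log2 scale. Srsf5 held 126, 186 and 154 CPM in the remission libraries. Hnrnpa2b1, at 269, 281 and 304 CPM, differed by 0.95 ± 0.12 (SE, adjusted p 4.99e-06), and Hnrnph1, at 158, 189 and 165 CPM, by 0.90 ± 0.12 (SE, adjusted p 9.58e-06). U2af2 and Hnrnph3 were higher as well (0.55 ± 0.14 and 0.61 ± 0.23). Lower in remission were Hnrnpll, at 41.3, 38.5 and 40.9 CPM (-0.98 ± 0.13 (SE, adjusted p 7.72e-06)), Hnrnpa0 (-0.92 ± 0.17), Hnrnph2 (-0.82 ± 0.20), Hnrnpf (-0.80 ± 0.21), Hnrnpa1 (-0.53 ± 0.16) and Hnrnpk (-0.34 ± 0.12). The SF3 genes lower than in acute mice were Sf3b6 (-1.59 ± 0.39 (SE, adjusted p 0.00326)), Sf3b5 (-1.19 ± 0.41) and Sf3b2 (-0.43 ± 0.13). Sf3b6 held 4.80, 1.53 and 1.86 CPM in remission, with 7 to 41 counts per library over the study. This comparison shares the acute libraries with that of acute and control mice, so it gives no independent evidence on them. The calls of Hnrnpk and Hnrnph3 were each lost in 8 of the 21 alternatives, that of Sf3b5 in 7, that of Sf3b2 in 5 and that of Hnrnpa1 in 3. With library totals alone, remission against acute gave 16 members higher and 3 lower. Under that setting the median of all genes moved by 0.31, and 71.1% of calls over all genes were higher, against 47.6% with TMM.

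Chronic against acute mice gave 5 members higher and 3 lower, with 13.3% and 15.5% of all genes called. Higher were Hnrnph1, at 141, 153 and 148 CPM (0.69 ± 0.12 (SE, adjusted p 0.000247)), Hnrnpa2b1, at 216, 232 and 234 CPM (0.62 ± 0.12 (SE, adjusted p 0.000595)), Srsf2 (0.54 ± 0.16), Srsf6 (0.42 ± 0.13) and Srsf9 (0.41 ± 0.14). Lower were Hnrnpll, at 43.8, 41.4 and 39.3 CPM (-0.94 ± 0.13 (SE, adjusted p 2.01e-05)), Hnrnph2 (-0.69 ± 0.20) and Hnrnpa0 (-0.65 ± 0.16). The Srsf9 call was lost in 10 of the 21 alternatives, among them DESeq2, limma-voom and no filter on low counts, and that of Hnrnph2 in 4. The number higher went to 3 without acute replicate 3 or chronic replicate 3. Between chronic and remission mice, edgeR called 0 members in either direction, with 0.941% of all genes called higher and 0.263% lower. At an unadjusted p under 0.05, 3 members were higher and 2 lower there, and DESeq2 and limma-voom each called 0. A difference among the 4 groups as a whole was called for 18 of 41 members, or 43.9%, against 44.0% of all genes.

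Many of these genes have annotated transcripts that are degraded or keep an intron, which counts per gene do not separate from productive ones. Transcripts marked for nonsense-mediated decay are annotated for 22 of the 41 tested members and for 9 of 10 SR genes, against 30.8% of 10839 protein-coding genes tested. Retained-intron transcripts are annotated for 75.6% of members and 62.3% of those genes. Whether the share of these forms moved with the phase was not measured. Members have a median of 7 annotated transcripts, against 5 over those protein-coding genes. Sequence shared with other genes also differed: Hnrnpll, Hnrnpa2b1, Srsf7 and Srsf6 had none in windows of read length, Hnrnph1 had 1.20%, Hnrnph2 11.1%, Hnrnpk 14.3% and Hnrnpa3 26.1%, the last with 39 other genes.

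Other genes of the splicing pathway were followed as lists by role, with each count taken from the test over all genes. These counts stand against 23.7% of all genes called higher and 20.0% called lower in acute mice, and differences between lists were not tested. Both shares are those of edgeR at an adjusted p under 0.05 and do not serve the counts by other tests or at an unadjusted p. Among kinases that act on SR proteins and the spliceosome, 5 of 9 fell in acute mice and 0 rose, also at an unadjusted p under 0.05 and by DESeq2 and limma-voom, with a median log2 fold change of -0.53 against 0.02 over all genes. Prpf4b stood at 67.3, 62.0 and 62.6 CPM in control and 41.8, 41.6 and 42.7 CPM in acute libraries, without overlap (-0.61 ± 0.12 (SE, adjusted p 0.000442)). Clk4, which phosphorylates SR proteins in the nucleus, stood at 59.2, 46.8 and 54.8 CPM and 36.6, 34.9 and 36.2 CPM (-0.58 ± 0.14 (SE, adjusted p 0.00167)). The others that fell were Clk1 (-0.53 ± 0.13), Clk2 (-0.58 ± 0.16) and Srpk3 (-1.30 ± 0.38), named here after their values were seen. Of 19 SR-related proteins, 8 fell and 0 rose by edgeR, 7 and 0 by DESeq2 and 10 and 1 by limma-voom, with a median of -0.28. At an unadjusted p under 0.05, 9 were lower and 0 higher. Rsrc2 measured 62.2, 58.2 and 50.3 CPM and 26.5, 29.6 and 40.6 CPM (-0.83 ± 0.15 (SE, adjusted p 0.000168)), and Son, the scaffold of nuclear speckles, 609, 620.3 and 571 CPM and 409.9, 438 and 412 CPM (-0.52 ± 0.12 (SE, adjusted p 0.00178)).

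Proteins of the core of the spliceosome were followed in the same way. Of 16 proteins of the U4/U6.U5 tri-snRNP, 3 rose and 0 fell, where 23.7% of all genes rose and 20.0% fell. Those that rose include the helicase Snrnp200 (0.51 ± 0.13 (SE, adjusted p 0.00259)) and the GTPase Eftud2 (0.58 ± 0.18 (SE, adjusted p 0.0116)). Of 10 U1 genes, 1 rose and 4 fell. Prpf40b, at 25.0, 27.3 and 22.7 CPM in control and 6.23, 9.86 and 6.22 CPM in acute libraries, fell (-1.74 ± 0.23 (SE, adjusted p 4.11e-06)). Of 6 Sm core proteins and 14 other U2 and branch site proteins, edgeR and DESeq2 called 0, and their medians were 0.76 and 0.18. At an unadjusted p under 0.05, 3 Sm core genes were higher, and 2 of the others were higher and 1 lower, while limma-voom called 3 and 2 higher. Snrpd1 (1.09 ± 0.45 (SE, adjusted p 0.0559)), Snrpb (0.45 ± 0.20 (SE, adjusted p 0.0739)), Rbm17 (0.50 ± 0.22 (SE, adjusted p 0.0726)) and Phf5a (0.81 ± 0.37 (SE, adjusted p 0.0807)) had the smallest p in these lists. Of 9 genes of the minor spliceosome, 2 rose and 1 fell, with Scnm1 (1.39 ± 0.31 (SE, adjusted p 0.000963)) and Rnpc3 (-0.73 ± 0.22 (SE, adjusted p 0.0106)) leading.

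Of 34 other RNA-binding regulators of splicing, 4 rose and 12 fell, with a median of -0.24, beside 23.7% and 20.0% of all genes. Pcbp2, a cytosine-binding relative of Hnrnpk, rose from 30.0, 24.4 and 27.8 CPM to 79.6, 69.0 and 64.0 CPM (1.37 ± 0.14 (SE, adjusted p 1.18e-07)), and the cold-induced Rbm3 rose from 45.4, 35.7 and 31.9 CPM to 134, 125 and 103 CPM (1.68 ± 0.20 (SE, adjusted p 2.58e-06)). Mbnl1 and Qk were among those that fell, with log2 fold changes of -0.83 ± 0.11 and -0.78 ± 0.12, and were named after their values were seen. In the exon junction complex 1 of 7 rose, Magohb (2.35 ± 0.53 (SE, adjusted p 0.00119)), and 1 fell, Casc3 (-0.54 ± 0.15 (SE, adjusted p 0.00542)). In nonsense-mediated decay 1 of 10 fell, the kinase Smg1 (-0.62 ± 0.12 (SE, adjusted p 0.000310)), while Smg6 had -0.31 ± 0.14. A list of 4 nuclear import receptors, among them Tnpo1 (0.27 ± 0.14) and Tnpo2 (0.27 ± 0.14), gave 0 calls by edgeR, DESeq2 and limma-voom. At an unadjusted p under 0.05 it also gave 0. In remission 1 gene of all these lists passed against control, Scnm1 (1.06 ± 0.30 (SE, adjusted p 0.0314)). Over all genes, 6.06% were called higher and 3.25% lower in that comparison. In chronic mice 5 passed, all lower: Mbnl1 (-0.68 ± 0.11 (SE, adjusted p 0.000193)), Smg1 (-0.47 ± 0.12), Celf2 (-0.52 ± 0.15), Tial1 (-0.43 ± 0.13) and Rnpc3 (-0.73 ± 0.22). There, 9.57% of all genes were called higher and 5.17% lower.

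**Figure D5:**
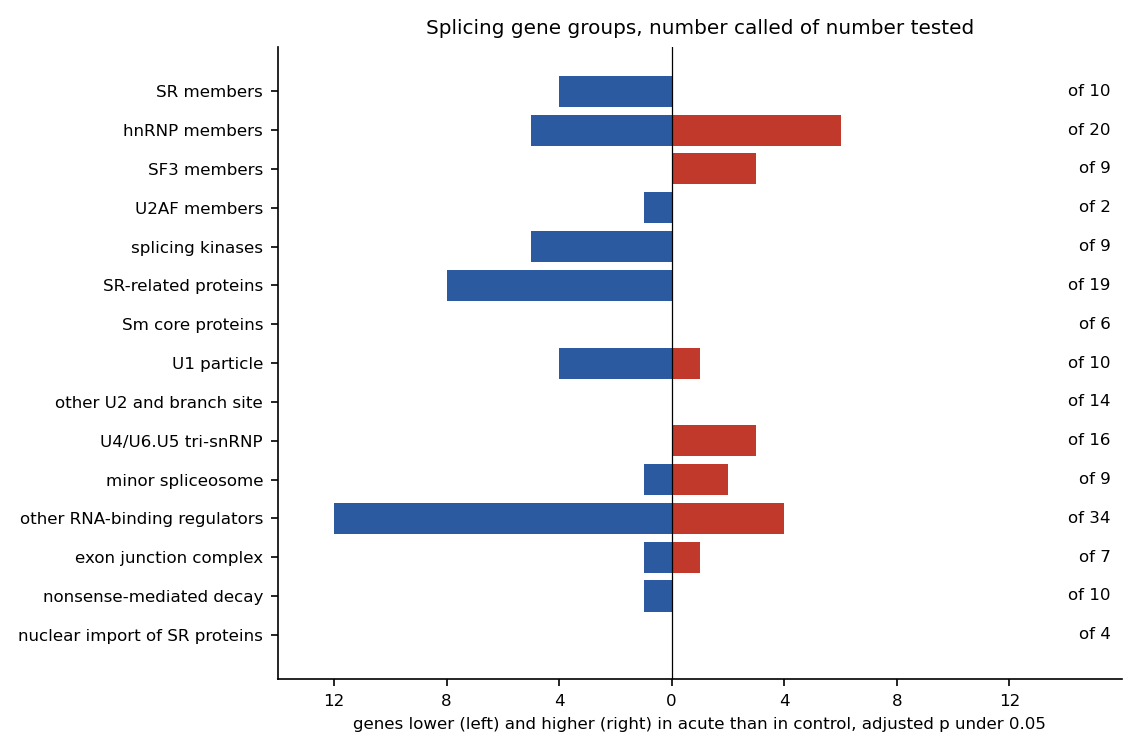
Number of genes lower (bars to the left) and higher (bars to the right) in acute than in control mice for the 4 member families and 11 further lists of splicing genes, with the number tested at the right. SR and U2AF genes, splicing kinases, SR-related proteins and nonsense-mediated decay genes have bars to the left alone, and SF3 and tri-snRNP genes to the right alone. Over all genes, 23.7% were called higher and 20.0% lower.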

How the data were processed

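RNA of sorted microglia from 12 mice was measured. The submitters' processing notes name the build GRCm38 and the tools HISAT2, Picard 2.6.4, SAMtools 1.3.1 and HTSeq 0.6.1, with no role or order. HTSeq settings are not given in the sources used here. The values the authors deposited are raw counts per Ensembl gene. Symbols and exon lengths came from GENCODE M21, which matched 48144 of 48526 IDs, and the rest held 0.02078% of counts. Per the labels' protocols, random hexamers and a transposase kit that does not mark strand were used with single reads of 75 bases. Overlapping genes and near-identical copies can therefore share reads.

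With edgeR 4.0.16 in R 4.3.3, all 12 libraries entered 1 model of the 4 groups (filterByExpr, TMM factors, robust quasi-likelihood fit and test), and p-values were adjusted by Benjamini and Hochberg's method over 12545 genes. Calls were made at an adjusted p under 0.05. P-values set a difference against the spread between mice within groups, estimated over all 12 libraries and in part across genes. Replicate numbers follow the order of the records and pair nothing. The members, the lists and the naming rule were chosen with earlier results of these data known. The rule named, by smallest p in acute against control, 5 SR, 6 hnRNP, 4 SF3 and 2 U2AF genes, then every member called in remission or chronic against control, the member with the highest level per kilobase of each family, and 2 genes of each list. Some of these genes are not reported here. Of the gene symbols that match the rule for members, 2 that are not protein-coding were left out.

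The fit was tested on simulated data for acute against control with 12014 genes. It found 4% of simulated 1.5-fold changes, 42% of 2-fold, 86% of 4-fold and 92% of 8-fold ones, and 6 of its 118 calls were false. The simulated libraries, acute ones included, were drawn from control proportions with few genes changed, so these shares need not hold for the real comparison. Alternatives were other scalings and filters, DESeq2 1.42.0, limma-voom (limma 3.58.1), the title number as a covariate, only the 2 groups compared, and leaving out each library.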

Additional observations from a re-analysis of the deposited data

Results flagged for a closer look

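The results here are members whose change against control differed between phases, as tested by the direct comparison of the phases in edgeR. In remission against acute mice the log2 differences were positive for Hnrnpa2b1 (0.95), Hnrnph1 (0.90), Srsf7 (0.81), Srsf5 (0.72), Hnrnph3 (0.61), Srsf2 (0.57), U2af2 (0.55) and Srsf6 (0.53). They were negative for Sf3b6 (-1.59), Sf3b5 (-1.19), Hnrnpll (-0.98), Hnrnpa0 (-0.92), Hnrnph2 (-0.82), Hnrnpf (-0.80), Hnrnpa1 (-0.53), Sf3b2 (-0.43) and Hnrnpk (-0.34). In chronic against acute mice they were 0.69 for Hnrnph1, 0.62 for Hnrnpa2b1, 0.54 for Srsf2, 0.42 for Srsf6, 0.41 for Srsf9, -0.94 for Hnrnpll, -0.69 for Hnrnph2 and -0.65 for Hnrnpa0. Both comparisons share the acute libraries. Groups of 3 libraries are too small to look for single outlying samples.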

How the results depend on the processing

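With library totals alone the members called were 1 higher and 21 lower in acute against control, 3 lower in remission against control, 0 higher and 13 lower in chronic against control, 16 higher and 3 lower in remission against acute, and 10 higher and 1 lower in chronic against acute mice. Over all genes, the share of calls that were higher moved as well. Against control it went from 54.3% to 22.8% in acute, 65.1% to 32.4% in remission and 64.9% to 21.8% in chronic mice. Against acute mice it went from 47.6% to 71.1% in remission and 46.3% to 64.6% in chronic mice. Under that setting Sf3b2 (-0.083), Sf3a1 (-0.072), Hnrnpa1 (-0.0047), Hnrnpk (-0.24) and Hnrnpul1 (-0.26) reversed in acute against control, which follows from the shift of the median gene. Totals outside the dominant features gave 2 lower in remission and 0 higher in chronic against control, where 58.2% and 54.9% of calls over all genes were higher. The counts that follow have no share over all genes beside them. With no filter the counts were 5 higher in acute, 2 lower in remission and 0 higher in chronic against control, and 1 higher in chronic against remission. DESeq2 gave 2 higher in chronic against control, and limma-voom and the fit of only the 2 groups gave 2 lower in remission against control. Without 1 library the counts ran from 5 to 9 higher in acute against control, from 0 to 1 higher and 0 to 2 lower in remission against control, from 0 to 1 higher and 1 to 3 lower in chronic against control, from 3 to 6 higher in chronic against acute, and from 0 to 1 higher in chronic against remission. The cause of these changes in the counts was not tested, and the fits without 1 library also rest on fewer libraries. No paired analysis was possible because the replicate numbers come from the order of the records. Small changes may be missed with the 1266782 to 1459329 counts outside the dominant features in acute libraries. How often they are missed was not measured, because the simulation was drawn from control proportions.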
